A study of Arabidopsis thaliana with 15 samples.

Results

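Described here are 200 late transcripts of the series, the probe sets whose signal at 36 and 48 h stood farthest above all earlier times. They were chosen from the 22746 probe sets of the array that are not Affymetrix controls. For the choice, signals below 32 were set to 32, log2 values were averaged per time, and each probe set was scored as the lower of its 36 and 48 h means minus the highest of its 0, 12 and 24 h means. The 200 highest scores were taken. The platform annotation paired 97 of the 200 with exactly 1 gene, 2 with several genes, and did not list 101. Only the 97 are named below, and all but 10 of them by locus, since the annotation gives no other symbol. All 200 passed the filter on dim signals, as the rule requires of probe sets with a high late mean. Every contrast of 36 or 48 h with an earlier time was used by the choice, so these contrasts are described without a test. The tests given concern steps whose direction the choice did not fix: 48 h against 36 h, 24 h against 12 h, and 12 or 24 h against 0 h. The choice used the means of all these times, however, so it still shapes the shares called in these steps.

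The series followed an induced differentiation of xylem cells in leaf disks of Arabidopsis thaliana ecotype Col-0. Disks with a diameter of 1 mm came from rosette leaves of 25-day-old seedlings and were placed in a medium with the synthetic auxin 2,4-D at 1.25 mg/L, the cytokinin kinetin at 0.25 mg/L, and bikinin, an inhibitor of GSK3 kinases in brassinosteroid signalling, at 10 µM. RNA was extracted at 0, 12, 24, 36 and 48 h and hybridised to 1-colour Affymetrix arrays, 3 per time and 15 in all. All disks were wild type and all later times shared the same medium. No disks kept without the compounds were among the samples, so effects of the compounds, of cutting, of culture and of time cannot be told apart. A leaf disk also holds many cell types, and in such bulk RNA more cells of a type and more RNA per cell cannot be told apart.

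Tracheary elements, the water-conducting cells of xylem, build a thick secondary wall in bands or spirals and then die, leaving a hollow tube. That wall consists of cellulose, of xylan, a hemicellulose with a xylose backbone, and of lignin, a phenolic polymer that forms when peroxidases and laccases oxidise monolignols. Death proceeds by autolysis, in which proteases and nucleases clear the cell contents. In xylem the genes for wall polymers and for autolysis are known to be switched on by NAC and MYB transcription factors, which act before them.

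Each array had been scaled by the authors to a common trimmed mean, and the median signal over all probe sets lay between 121.8 and 169.9. The 3 arrays of a time carry replicate numbers in the labels, but nothing says that they came from separate cultures, so the p-values rest on a spread between arrays that may be technical. With 3 arrays per time, precision is limited. The third array of 36 h carries no number and is called replicate 3 by order alone. The tissue label held at 0 h, when the summed signal of 6 measured mesophyll photosynthesis genes was 144116 to 187394. At 12 h this sum was 5383 to 9350 and at 24 h 7271 to 12353. It was 2762 to 8415 at 36 h, while 48 h gave 3289 to 6211.

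The late transcripts were dim on most early arrays. Their median signal was 52.2, 47.5 and 64.2 on the arrays of 0 h and 48.5, 43.2 and 48.5 on those of 12 h. At 24 h it was 123.3, 173.4 and 104.1. At 36 h it was 863.6, 661.5 and 355.1, and at 48 h 1337.7, 881.3 and 956.5. The step between 24 and 36 h was the largest, as the choice itself favours, with a smaller one before it. The median over all probe sets hardly moved, on arrays that had been scaled to a common trimmed mean.

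**Figure D1:**
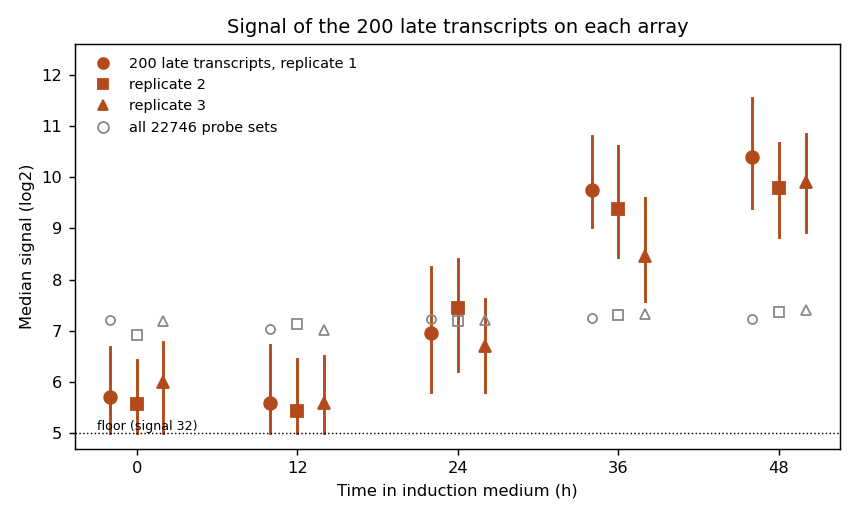
Median log2 signal of the 200 late transcripts (filled symbols, bars from the lower to the upper quartile) and of all 22746 probe sets (open symbols) on each of the 15 arrays, by time in the medium, with signals below 32 set to 32. The late transcripts' medians lie at 8.47 to 10.39 at 36 and 48 h, against 5.43 to 6.01 at 0 and 12 h, with replicate 3 lowest at 36 h.

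The scores ran down to 1.70 at rank 200, a fold of 3.24 between the lower late mean and the highest early mean. The highest score was 3.48, a fold of 11.1, and the median was 2.06, a fold of 4.18. Over all 22746 probe sets the median score was -0.24, and 682 (3%) scored above 1. The limit at rank 200 parted near neighbours. The last named members were AT3G51720 and AT1G68430, both at a score of 1.70, and the first named genes beyond the limit were AT3G02120 and AT4G09950, both at 1.69. The highest early mean was that of 24 h in 177 of the 200, of 0 h in 18 and of 12 h in 5. The lower late mean was that of 36 h in 186.

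The name "switched on after 24 h" holds in full for only some of the 200. In 103, the means of both 0 and 12 h were below a signal of 64, and in 41 the 24 h mean was below it too. In 74, however, the 24 h mean was already at least 2-fold above the means of 0 and 12 h, whereas in 23 it was at or below 1 of them. All 6 late arrays lay above all 9 early arrays in 168 of the 200 (84%), against 5.14% of the probe sets kept, a difference that the choice itself makes. In 28 of the other 32 the lowest late array was 36 h replicate 3. The highest early array was 24 h replicate 2 in 16 of them.

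The highest score of all belonged to AT1G24030, which encodes a protein kinase. Its signals, with replicates 1, 2 and 3 in that order here and below, were 37.4, 30.1 and 86.7 at 0 h, 16.9, 12.3 and 2.40 at 12 h, 29.7, 83.4 and 56.5 at 24 h, 763, 935 and 293 at 36 h, and at 48 h 1172, 827 and 801. The lowest late array, 36 h replicate 3, stood at 293, against 86.7 on the highest early one, 0 h replicate 3. Rank 6 was held by IRX15, described with the xylan genes, and rank 7 by AT1G19230, the NADPH oxidase RBOHE. AT1G63300, at rank 12, gave signals of 18.3, 31.98 and 77.7 at 0 h, 4.92, 18.4 and 30.4 at 12 h, 43.4, 78.4 and 73.3 at 24 h, 658, 494 and 356 at 36 h, and at 48 h 374, 474 and 976. The arrays of 48 h spanned a wider range than those of 36 h, but none overlapped an early array. AT2G37610 gave 155 to 633 on the 6 late arrays, against at most 39.8 on the 9 early ones. For AT2G41610 the late arrays held 123 to 444 and the early arrays 22.4 to 52.2. The 25 named transcripts with the highest scores reached down to rank 53 and a score of 2.45. In 22 of these 25 no early array reached a late one, as in 168 of the 200. Over the probe sets kept the share was 5.14%, a difference that the choice itself makes. The third array of 36 h was the lowest of its time in 22 of the 25 and in 166 of the 200. Among the probe sets kept and not tied at the floor it was the lowest in 34.6%.

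**Figure D2:**
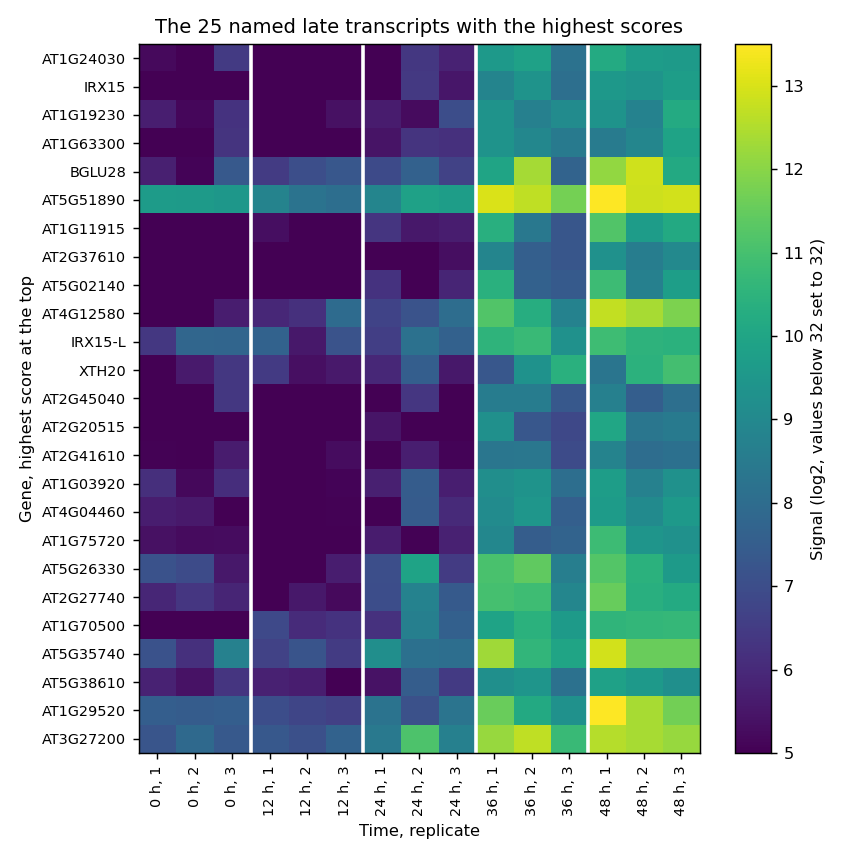
Signal (log2, values below 32 set to 32) of the 25 named late transcripts with the highest scores, one per line, on the 15 arrays ordered by time and replicate, with white lines between times. Most lines are at or near the floor of 5 up to 24 h and bright from 36 h on. AT5G51890 is bright throughout and brighter late, and BGLU28 and XTH20 differ between replicates.

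Genes of xylan synthesis were among the late transcripts. IRX15 and IRX15-L encode related proteins needed for normal xylan, GUT2 (also called IRX10) a glycosyltransferase of the xylan backbone, and TBL34 an enzyme that acetylates xylan. IRX15 gave signals of 4.65, 4.17 and 11.4 at 0 h, 4.31, 4.81 and 14.9 at 12 h, 5.94, 85.6 and 45.3 at 24 h, 457, 658 and 276 at 36 h, and at 48 h 737, 675 and 842. No late array was below 276, whereas no array of 0 or 12 h exceeded 14.9, and the arrays of 24 h were split. Its partner IRX15-L gave signals of 82.5, 223 and 216 at 0 h, 202, 46.8 and 146 at 12 h, 95.7, 287 and 200.1 at 24 h, 1470.1, 1725 and 631 at 36 h, and at 48 h 1859, 1443 and 1371. It was measured above the floor before induction too, and the lowest late array, 631, lay above the highest early one, 287.

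GUT2 gave signals of 206, 144 and 125 at 0 h, 123, 133 and 83.9 at 12 h, 118, 238 and 180.5 at 24 h, 1066, 1268 and 352 at 36 h, and at 48 h 1582, 974 and 1005. The late arrays held 352 to 1582, with 36 h replicate 3 again the lowest, and the early ones 83.9 to 238. Its homologue GUT1 (IRX10-L) was not among the 200, with a score of 0.53 and mean signals of 518 at 24 h, 749.7 at 36 h and 754 at 48 h. TBL34 gave signals of 38.7, 55.6 and 59.5 at 0 h, 1.94, 22.7 and 39.9 at 12 h, 90.4, 221 and 87.9 at 24 h, 683, 694 and 229 at 36 h, and at 48 h 1047, 613 and 489.9. Its lowest late array, 36 h replicate 3 at 229, was close to its highest early one, 24 h replicate 2 at 221. Of 22 measured genes with a TBL symbol, it was the only one among the 200, and the median score of the 22 was -0.06.

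Enzymes of wall oxidation formed another group, put together after the members had been seen. AT5G51890 and AT2G22420 encode class III peroxidases (PRX66 and PRX17), the enzyme family that oxidises monolignols, and AT1G19230 (RBOHE) belongs to the NADPH oxidases, which make superoxide outside the cell. AT5G51890 gave signals of 808, 787 and 725 at 0 h, 442, 301 and 269 at 12 h, 469, 937 and 843 at 24 h, 8371, 6549 and 3389 at 36 h, and at 48 h 11969, 7419.7 and 7829. It was bright at every time, was lower at 12 h than at 0 h (log2 change -1.23 ± 0.36, adjusted p = 0.0145), and its late arrays stood at 3389 or more, against at most 937 on early ones. AT2G22420 gave signals of 78.7, 46.2 and 71.5 at 0 h, 71.8, 63.6 and 51.7 at 12 h, 99.7, 161 and 95.0 at 24 h, 504, 599 and 424 at 36 h, and at 48 h 509, 934 and 877. It was already higher at 24 h than at 0 h (log2 change 0.85 ± 0.31, adjusted p = 0.0361). AT1G19230 gave signals of 52.5, 35.4 and 76.3 at 0 h, 6.91, 23.8 and 41.4 at 12 h, 50.05, 37.8 and 128 at 24 h, 665, 415 and 553 at 36 h, and at 48 h 667, 439 and 1176. Its lowest late array was 36 h replicate 2, at 415, against 128 on its highest early array, 24 h replicate 3, so it did not share the low replicate 3 of 36 h. AT5G26330 and AT3G27200 encode small cupredoxin-type copper proteins. AT5G26330 gave signals of 140.2, 123 and 46.3 at 0 h, 17.6, 28.4 and 50.9 at 12 h, 133, 967 and 90.1 at 24 h, 2138, 2747 and 399 at 36 h, and at 48 h 2391, 1366 and 793. The array 24 h replicate 2 was above 36 h replicate 3 and 48 h replicate 3, so early and late arrays overlapped. The same array stood out for AT3G27200, at 2237 against 348 and 412 on the other arrays of 24 h.

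Other members act on pectin and xyloglucan, polymers of the primary wall. XTH20 encodes a xyloglucan endotransglucosylase/hydrolase, GH9B6 an endoglucanase, AT1G70500 and AT1G23460 pectin lyase-like proteins, AT2G22620 a rhamnogalacturonate lyase, and AT5G38610 a protein of the invertase and pectin methylesterase inhibitor family. XTH20 gave signals of 25.6, 48.5 and 82.5 at 0 h, 88.0, 40.3 and 48.2 at 12 h, 61.4, 184 and 46.4 at 24 h, 158, 649 and 1342 at 36 h, and at 48 h 318, 1412 and 1999. Replicate 1 was the lowest array of both 36 and 48 h, and at 36 h it lay below 24 h replicate 2. Of 9 measured XTH genes only this 1 was among the 200. GH9B6 gave signals of 5.15, 3.30 and 2.98 at 0 h, 61.4, 18.00 and 54.8 at 12 h, 73.6, 62.4 and 24.4 at 24 h, 366, 206 and 230.1 at 36 h, and at 48 h 349, 264 and 357. At 0 h no array exceeded 5.15, and the gene was higher at 12 h than at 0 h (log2 change 3.41 ± 0.50, adjusted p = 1.32e-04), which rests on signals below 32 at 0 h and was 0.57 and not called with signals below 32 set to 32.

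AT1G70500 gave signals of 10.9, 30.4 and 16.7 at 0 h, 117, 66.6 and 76.3 at 12 h, 74.6, 403 and 194 at 24 h, 965, 1376 and 786 at 36 h, and at 48 h 1509, 1584 and 1638. All arrays of 0 h were below 32. The gene was higher at 12 h than at 0 h (log2 change 2.25 ± 0.53, adjusted p = 0.0038), and its late arrays were above all of these. AT1G23460, read by a probe set that matches more than 1 transcript, gave signals of 145, 249.6 and 138 at 0 h, 70.1, 96.7 and 70.8 at 12 h, 155, 726 and 289.5 at 24 h, 1649, 2141 and 774 at 36 h, and at 48 h 2001, 1883 and 1679. It was lowest at 12 h, and 24 h replicate 2 came close to 36 h replicate 3. AT5G38610 held 285 to 938 on late arrays and 32.7 to 183 on early ones. AT2G22620 held 83.4 to 461 on late and 3.40 to 45.8 on early arrays, so neither gene overlapped between the 2 sets of times. AT5G35740 and AT4G13600 encode proteins with the X8 domain, which binds carbohydrate. AT5G35740 held 1005 to 7695 on late and 72.9 to 591 on early arrays. AT4G13600 held 513 to 1838 on late and 32.05 to 325 on early arrays.

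**Figure D3:**
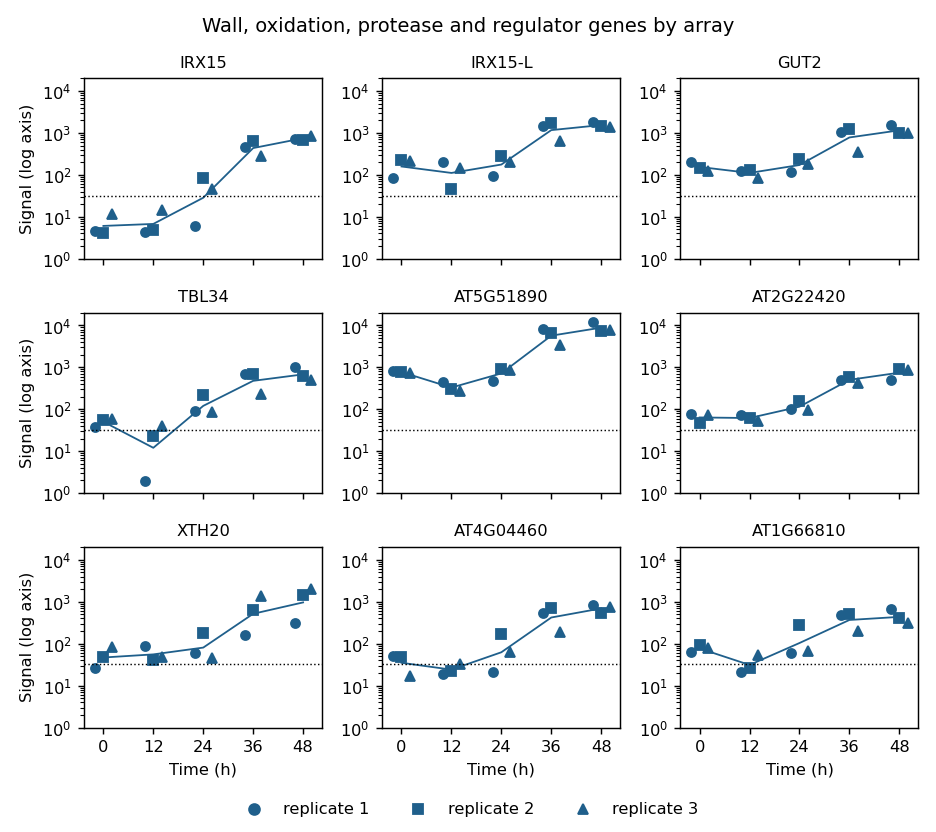
Signal (log axis) of 9 late transcripts of wall synthesis, oxidation, proteolysis and regulation on each of the 15 arrays, by time, with a line through the geometric mean of each time and a dotted line at the floor of 32. IRX15 lies at 276 to 842 at 36 and 48 h, against at most 14.9 at 0 and 12 h, AT5G51890 is bright at all times, and the replicates of XTH20 spread at 36 h, where they give 158, 649 and 1342.

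Among proteases, AT4G04460 encodes the aspartic protease PASPA3, a marker of developmental cell death, and AT2G45040 a matrix metalloproteinase. AT4G04460 gave signals of 51.7, 48.0 and 17.3 at 0 h, 18.6, 22.5 and 33.0 at 12 h, 21.4, 174.7 and 64.9 at 24 h, 546, 715 and 191 at 36 h, and at 48 h 819, 540.4 and 754. The lowest late array, 36 h replicate 3 at 191, was only little above 24 h replicate 2 at 174.7, while the arrays of 0 and 12 h held at most 51.7. AT2G45040 gave signals of 31.1, 32.04 and 83.2 at 0 h, 16.7, 4.51 and 8.93 at 12 h, 6.78, 81.0 and 10.0 at 24 h, 382, 377 and 162 at 36 h, and at 48 h 420.4, 186 and 275. It was lower at 12 h than at 0 h (log2 change -2.32 ± 0.82, adjusted p = 0.0355), a difference of -0.46 and not called with signals below 32 set to 32. Of the 9 genes listed as hydrolases of xylem cell death, 2 were measured and 0 were among the 200. scpl48, a serine carboxypeptidase-like gene, came closest at rank 269 with a score of 1.57. It was higher at 24 h than at 12 h (log2 change 1.497 ± 0.284, adjusted p = 0.0294). The other measured hydrolase gene, GAMMA-VPE, scored -1.24 and ranked 18536. Its mean signal fell from 2723.5 at 0 h to 515.9 at 12 h (log2 change -2.40 ± 0.425, adjusted p = 5.5e-04 by limma's test). The later means of GAMMA-VPE were 603.8, 1153.5 and 2106.1, all below its 0 h mean.

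Few regulators could be named. Of 31 listed transcription factors of xylem only 1 was paired with a probe set, AT1G66810 (C3H14), a CCCH zinc finger protein, and it was a member. AT1G66810 gave signals of 64.3, 92.0 and 76.9 at 0 h, 21.4, 26.4 and 53.3 at 12 h, 59.5, 278 and 67.2 at 24 h, 486, 512 and 200.4 at 36 h, and at 48 h 673, 401 and 307. The array 24 h replicate 2 was above 36 h replicate 3, and the gene left the 200 when 24 h replicate 1, 24 h replicate 3 or 36 h replicate 2 was omitted. AT5G03510 encodes a C2H2 zinc finger protein. It gave signals of 52.3, 69.5 and 63.9 at 0 h, 33.6, 26.8 and 41.3 at 12 h, 118, 124 and 74.5 at 24 h, 494, 473 and 214 at 36 h, and at 48 h 2532, 1148 and 634. It was highest in 48 h replicate 1 and lowest of the late arrays in 36 h replicate 3. ATL4H, a RING-type ubiquitin ligase, held 1004 to 3148 on late and 50.4 to 531 on early arrays.

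In signalling, AT1G03920 encodes a kinase of the NDR group and AT1G08340 the GTPase-activating protein ROPGAP5, which acts on ROP GTPases. AT1G03920 gave signals of 71.1, 36.2 and 69.9 at 0 h, 21.1, 14.1 and 33.7 at 12 h, 53.8, 176 and 52.5 at 24 h, 589, 666 and 272 at 36 h, and at 48 h 859.8, 423 and 632. The lowest late array, 36 h replicate 3, was at 272 and the highest early one, 24 h replicate 2, at 176. AT1G08340 gave signals of 43.0, 58.6 and 40.3 at 0 h, 48.9, 12.9 and 20.8 at 12 h, 44.3, 55.2 and 54.5 at 24 h, 351, 369 and 87.4 at 36 h, and at 48 h 963, 494 and 353. The lowest late array was 36 h replicate 3 at 87.4, and up to 24 h no array exceeded 58.6. Relatives of ROPGAP5 are known to set where the wall of metaxylem is left thin.

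Small secreted and membrane proteins made up a further share. AT5G02140 and AT5G40020 encode thaumatin-like proteins and PDF2.1 a defensin. AT5G02140 gave signals of 1.499, 0.930 and 2.71 at 0 h, 3.87, 4.82 and 8.82 at 12 h, 76.1, 7.87 and 58.9 at 24 h, 1344, 199.9 and 171 at 36 h, and at 48 h 1806, 417 and 861. It was higher at 24 h than at 0 h (log2 change 4.40 ± 0.94, adjusted p = 0.0019), which rests on signals below 32 at 0 h, and no early array exceeded 76.1. PDF2.1 gave signals of 4.09, 12.4 and 10.6 at 0 h, 166, 465 and 606 at 12 h, 193, 1109.7 and 1169.7 at 24 h, 826, 4649 and 6585 at 36 h, and at 48 h 1701, 9314 and 13031. Replicate 1 was the lowest array at every time, and the gene was higher at 12 h than at 0 h (log2 change 5.47 ± 0.99, adjusted p = 6.56e-04). All its 0 h arrays were below 32, and with signals below 32 set to 32 the change was 3.49 and still called. Of 7 measured PDF genes it was the only member, and their median score was -1.19. XTH20 and PDF2.1 shared the low replicate 1 at 36 and 48 h.

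AT1G29520 and AT5G18970 encode AWPM-19-like membrane proteins, and both had the opposite order of replicates. AT1G29520 gave signals of 187, 179 and 186 at 0 h, 128, 110.1 and 97.2 at 12 h, 303, 137 and 310.0 at 24 h, 2991, 1149 and 624 at 36 h, and at 48 h 16306, 5406 and 3271. AT5G18970 gave signals of 194, 161 and 223 at 0 h, 218, 156 and 167 at 12 h, 473, 226 and 607 at 24 h, 3025, 1381 and 1100.0 at 36 h, and at 48 h 15094, 5811 and 3941. At 36 and at 48 h both genes were highest in replicate 1 and lowest in replicate 3. Their log2 difference of 48 h over 36 h was 2.36 ± 0.60 and 2.08 ± 0.51, with adjusted p = 0.909 and 0.904, so neither passed limma's test. AT4G27435 and AT1G31720, which share the DUF1218 membrane domain, held 483 to 2432 and 125 to 871 on late arrays, against 78.5 to 382 and 4.00 to 54.7 on early ones.

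Transporters included AT3G45710, of the NPF family, and AT2G34190, of the nucleobase-ascorbate family. AT3G45710 gave signals of 2.94, 28.5 and 25.2 at 0 h, 1.92, 1.14 and 1.51 at 12 h, 4.93, 36.9 and 5.73 at 24 h, 318, 189 and 97.7 at 36 h, and at 48 h 494, 157 and 125. Only 24 h replicate 2 exceeded 32 among its early arrays. AT2G34190 held 240.4 to 656 on late and 33.2 to 149.8 on early arrays.

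Some members lay side by side on a chromosome. Among 5818 measured pairs of genes with no other annotated gene between them, 97 held at least 1 member. In 4 of these pairs both genes were members. BGLU28 and BGLU15, both beta-glucosidases, were 1 of them and 2 of 20 measured BGLU genes. BGLU28 gave signals of 53.9, 34.2 and 166 at 0 h, 89.96, 131 and 159 at 12 h, 119, 200.1 and 101 at 24 h, 999, 5199 and 210.0 at 36 h, and at 48 h 4412, 7542 and 1154. Its late arrays ran between 210.0 and 7542, and 36 h replicate 3 was barely above the highest early array. BGLU15 gave signals of 6.59, 17.9 and 62.5 at 0 h, 107, 71.3 and 67.3 at 12 h, 1875, 1738 and 507 at 24 h, 5803, 4761 and 3338 at 36 h, and at 48 h 4626, 4921 and 6489. It was already higher at 24 h than at 12 h (log2 change 3.88 ± 0.68, adjusted p = 0.0258), where BGLU28 had a log2 difference of 0.12 ± 1.00 (adjusted p = 0.97). The late arrays of BGLU15 ran between 3338 and 6489. How far probe sets of such related genes share signal was not tested.

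A second pair was AT5G45530 and AT5G45540. Here the courses ran together, with 48 h signals of 4644, 1065 and 1535 for the first and 5009, 1489 and 1929 for the second. At 36 h they gave 1426, 267 and 214 and 1833, 401 and 258, again with replicate 1 far above the others. The remaining pairs were AT1G63300 with AT1G63310, and XTH20 with AT5G48060, a C2 domain protein. XTH20 was lowest in replicate 1 at 48 h, whereas AT5G48060 was highest there, at 4251, 1238 and 887. Chromosome 1 carried 38 of the 97 named members (39.2%), against 25.7% of all named genes of the array, and chromosome 3 carried 12 (12.4%, against 20.5%).

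Lists of genes for the pathway, chosen with earlier results of these data known, placed the members among their relatives. Only genes that the annotation pairs with a probe set could be looked up. Of 23 listed genes of xylan synthesis and acetylation, 5 were measured and 3 were among the 200. The other 2 were GUT1 and TBL30, at 0.53 and -0.35. TBL34, a member described above, was not on this list. Of 27 genes for lignin, 8 were measured and 2 were members, the peroxidases AT5G51890 and AT2G22420. The other 6 scored -3.15 to -0.10. HCT, an enzyme of monolignol synthesis, was one of these at -0.78, with mean signals of 2191 at 0 h and 2012 at 12 h, then 998, 1279 and 2007 at the later times. The peroxidase PRX52 had its highest mean, 669, at 12 h. None of 7 listed genes for secondary wall cellulose was measured.

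Genes known from xylem walls but not tied to 1 polymer formed a list of 20, of which 17 were measured. Of these, 9 (AT1G24030, AT2G41610, AT3G27200, AT5G40020, AT1G54790, AT4G27435, AT1G07120, AT5G60720 and AT1G58070) were among the 200, against 0.879% of all probe sets. Another 5 scored above 1, led by AT1G09440 at 1.67 and rank 214, and the median of the 17 was 2.03. The remaining genes were AT1G03740, AT1G22480 and AT2G31930, at -3.52, -0.13 and 0. AT1G03740 fell from a mean signal of 411.8 at 0 h to 35.8 at 48 h, and the other genes were at or near the floor at all times. The list was drawn up knowing that several of its genes are late here, so the share of members is no independent support. Without 24 h replicate 1 the 9 became 5. AT1G54790, a GDSL-type lipase gene, held 173 to 539 on late and 11.6 to 128 on early arrays. AT1G58070 held 133 to 839.6 on late and 15.3 to 197 on early arrays, which overlapped.

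**Figure D4:**
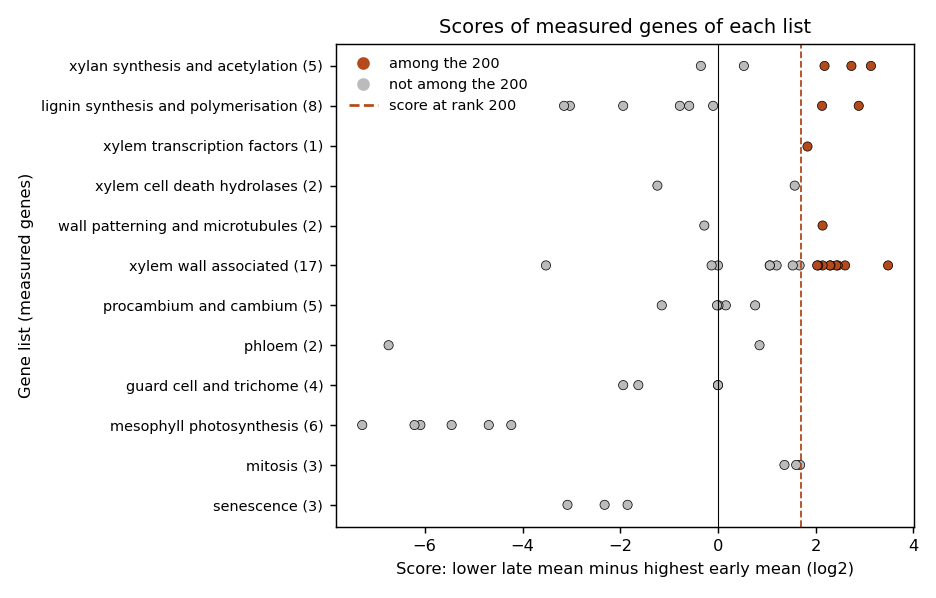
Score (lower mean of 36 and 48 h minus highest mean of 0, 12 and 24 h, log2) of the measured genes of 12 lists, with members of the 200 in red, other genes in grey and the score at rank 200 as a dashed line. Members come from the xylan, lignin, transcription factor, patterning and xylem wall lists. The 3 mitosis genes lie left of the line at 1.36 to 1.68, and the 6 mesophyll genes lie at -7.28 to -4.23.

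Lists for other cell types and states held 0 members. The 5 measured genes of procambium and cambium scored -1.15 to 0.76, the 2 of phloem -6.74 and 0.85, the 4 of guard cells and trichomes -1.94 to 0, and the 3 of senescence -3.08 to -1.85. SPCH and MUTE, which define the stomatal lineage, had mean signals at the floor at all times. The remaining genes of that list, FMA and TRY, did not. FMA was above the floor at every time, with mean signals falling from 425 at 0 h to 111 at 48 h. TRY had 98.7 at 0 h and 87.4 at 12 h, and was at the floor from 24 h on. The lists for epidermis and for suberin had 0 measured genes. The 3 measured mitosis genes also scored above 1 and were at ranks 208 (AUR2), 257 (AUR1) and 399 (UBC20). Their summed signal was 266 to 330 at 0 h, 346 to 432 at 12 h and 975 to 5544 at 24 h, then 4120 to 11347 at 36 h and 7200 to 7825 at 48 h. It moved with the late transcripts, and its part in their course was not tested.

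The comparison of 48 h with 36 h asked whether the transcripts were still climbing. The median log2 difference of 48 h over 36 h was 0.57 over the 200, against -0.01 over all probe sets kept, and 186 of the 200 were higher at 48 h. The 48 h mean was at least 2-fold that of 36 h in 69 and at least 4-fold in 17. By limma's moderated test 0 of the 200 were called in either direction, as were 0% of the 17829 probe sets kept. At an unadjusted p under 0.05, 52 members (26%) were higher and 0 lower, where 2.38% and 1.22% of the probe sets kept were. The smallest adjusted p among members was 0.904. Without 36 h replicate 3 the median was 0.17 and 120 of the 200 were higher. AT1G61760 had the largest difference among named members, a choice made after the values were seen, with 3607, 781 and 430.3 at 48 h, against 356, 118 and 104 at 36 h (log2 change 2.71 ± 0.80, adjusted p = 1 by limma's test). Its replicate 1 led at both times, as in many members.

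Replicates within the late times were not alike. At 36 h replicate 3 was the lowest array in 166 of the 200 and the highest in 9. Among the probe sets kept and not tied at the floor it was the lowest in 34.6%. Replicate 1 was the highest array at both 36 and 48 h in 80 members (40%), against 22% of the probe sets kept. Replicate 3 was the highest at both in 5 members (2.5%), against 23.6%. At 24 h, replicate 2 was the highest array in 85 of 197 members not tied at the floor (43.1%). Among the probe sets kept and not tied the share was 21.7%. Replicate 1 was the highest in 82 (41.6%), the same share as among those probe sets, 41.6%.

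The comparison of 24 h with 12 h asked how far the transcripts had begun before the late times. Of the 200, 192 were higher at 24 h than at 12 h, and the median log2 difference was 1.42, against 0.07 over all probe sets kept. In 25 (12.5%) the difference passed limma's test, where 0.959% of the probe sets kept were called higher and 0.241% lower. No member was called lower (0 of 200). The choice used the means of 12 and 24 h, so it shapes these shares too. The count rested on single arrays: 0 were called without 24 h replicate 1, without 24 h replicate 2 or without 12 h replicate 3, 13 without 12 h replicate 2, and 36 with the replicate number as a block. In those settings with 0, no probe set of the whole table was called. At an unadjusted p under 0.05, 116 members (58%) were higher and 0 lower, where 10.5% and 6.01% of the probe sets kept were. Of the 25, 9 were named, and 20 ranked between 101 and 200.

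The 4 largest changes among named genes were those of AT3G60650, AT1G49870, AT2G42110 and AT3G42725. AT2G42110 gave signals of 21.4, 15.4 and 27.6 at 0 h, 29.6, 22.6 and 9.35 at 12 h, 735, 425 and 149 at 24 h, 2280.2, 1225 and 947 at 36 h, and at 48 h 1351, 1369.9 and 2258. It rose at 24 h (log2 change 4.29 ± 0.58, adjusted p = 0.0175), and its signals at 36 and 48 h overlapped each other. AT3G42725 gave signals of 25.3, 14.5 and 27.9 at 0 h, 47.8, 35.1 and 33.7 at 12 h, 1362, 718 and 226 at 24 h, 2641, 2427 and 1236 at 36 h, and at 48 h 1301, 2254 and 2989. Its rise at 24 h (log2 change 3.98 ± 0.57, adjusted p = 0.0175) was highest in replicate 1 and took that array above 48 h replicate 1. AT1G49870 rose by 4.36 ± 0.65 on the log2 scale (adjusted p = 0.0175 by limma's test). For AT3G60650 the value was 4.57 ± 0.98 (adjusted p = 0.0451), but all its arrays of 12 h lay below 32, and with signals below 32 set to 32 it was 0.43 and not called.

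The others of the 9 were BGLU15, AT3G54040, AT1G31335, AT1G23790 and AT3G51720. AT3G54040 rose by 2.56 ± 0.31 (adjusted p = 0.0175), with 395, 477 and 449 at 24 h, against 79.1, 75.8 and 68.9 at 12 h. The groups did not overlap, and its arrays of 48 h gave 5783, 2470.4 and 3047. In 20 of the 25, replicate 1 was the highest array of 24 h, and in 0 was it replicate 3. The median difference of 48 h over 36 h was 0.07 in these 25, against 0.64 in the other 175.

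**Figure D5:**
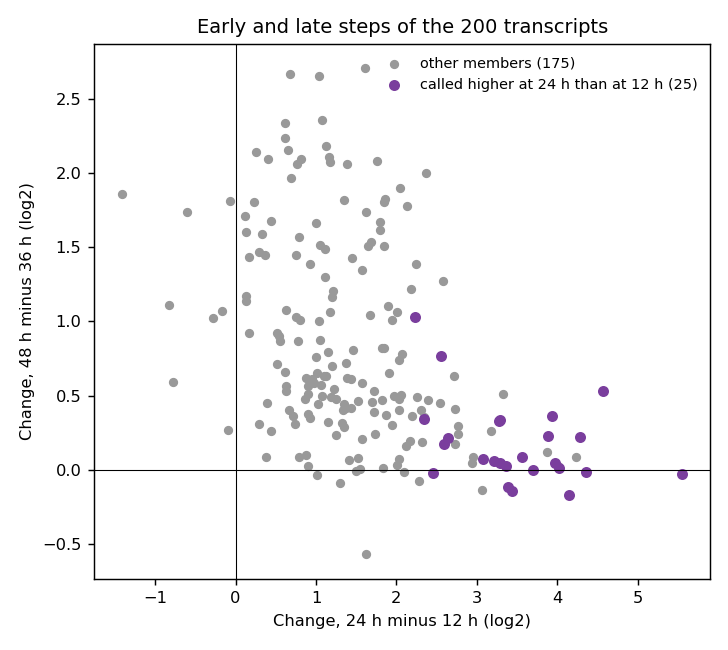
Log2 difference of 48 h over 36 h (vertical axis) against that of 24 h over 12 h (horizontal axis) for the 200 late transcripts, as means of 3 arrays per time, with the 25 called higher at 24 h than at 12 h in purple. The purple points lie at 2.23 to 5.56 on the horizontal axis and mostly near 0 on the vertical one, and the points highest on the vertical axis lie further left.

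The earliest step showed no common direction. At 12 h against 0 h, 16 of the 200 (8%) were called higher and 14 (7%) lower, below the shares of all probe sets kept, 23.4% and 21.8%, and the median log2 difference was -0.25. The choice disfavours transcripts with a high mean at 0 or 12 h, so it shapes these low shares. The called named genes with the highest log2 values were PDF2.1, GH9B6, AT4G12580 (3.08 ± 0.89, adjusted p = 0.0131) and AT1G04330 (3.05 ± 0.89, adjusted p = 0.0134). These sizes rest on 0 h signals mostly below 32. With signals below 32 set to 32 they were 3.49, 0.57, 1.47 and 1.31, and GH9B6 and AT4G12580 were not called. AT1G24030 fell by 2.54 ± 0.70 (adjusted p = 0.0102) and AT2G22620 by 2.15 ± 0.53 (adjusted p = 0.0051). The falls of AT2G45040, given above, and AT1G31720 (-1.75 ± 0.58, adjusted p = 0.0265) came next. These falls too rest on signals near or below 32, and with that floor none of them was called. The log2 values were then -0.55 for AT1G24030, -0.23 for AT2G22620, -0.46 for AT2G45040 and -0.44 for AT1G31720. With signals below 32 set to 32 the counts were 10 higher and 6 lower. With 1 array left out and the signals as first used, the lower count was 7 without 0 h replicate 1 or 0 h replicate 3, 8 without 12 h replicate 2, 9 without 0 h replicate 2 or 12 h replicate 1, and 11 without 12 h replicate 3.

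A comparison of 24 h with 0 h, added after the data had been seen, called 71 of the 200 (35.5%) higher and 0 lower, where 27.2% and 22.2% of the probe sets kept were called. The choice disfavours transcripts that fall from a high 0 h signal, so it shapes these shares, the 0 lower included. At an unadjusted p under 0.05, 85 (42.5%) were higher and 0 lower, where 30.3% and 25.4% of the probe sets kept were. Without 24 h replicate 2 the counts were 57 and 2. PDF2.1 (6.28 ± 0.99, adjusted p = 2.20e-04) and BGLU15 (5.93 ± 0.68, adjusted p = 2.07e-05) rose. AT4G02800 rose by 5.77 ± 1.02 (adjusted p = 4.97e-04), with 876, 657 and 213 at 24 h, against 2.32, 5.14 and 63.6 at 0 h. With signals below 32 set to 32 the log2 values of PDF2.1, BGLU15 and AT4G02800 were 4.30, 4.89 and 3.63, all still called.

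Because the choice used all arrays, the transcripts were also chosen on the arrays of 2 replicate numbers and read in the arrays of the number left out. Chosen without replicate 1, the 200 had a median score of 1.14 in replicate 1, and 186 scored above 0 there, where 16.3% of all probe sets did. In replicate 2 the median was 1.62 and 196 scored above 0, against 18.2% of all. For replicate 3 the values were 1.24 and 185, against 18.8%. The sets chosen in these ways shared 130, 170 and 151 probe sets with the 200. Of the 25 top named transcripts, 25, 25 and 24 were in these sets. The arrays of each set were also used to choose the 200 and to rank the 25, so these overlaps are no independent support. Nothing in the labels says that the numbers are separate cultures, so the arrays left out may not be independent either.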

How the data were processed

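RNA of 15 samples, 3 at each of 5 times, was measured on 1-colour Affymetrix arrays. The deposited intensities are linear. Per the submitters' processing notes, the authors used GCOS and MAS5; no versions are given in the sources used here. From the values, each array was scaled to a common mean trimmed by 2% at each end, so a shift shared by most transcripts would be hidden. No detection calls were used, and the number of arrays limits the precision.

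The members were found as the opening describes, and 64 control probe sets were left out. For tests, log2 of the deposited intensity was taken with no offset or further normalization. A probe set was kept where its highest time mean reached percentile 30 of all time means, a signal of 30.7, which kept 17829. limma 3.58.1 in R 4.3.3 was fitted to all 15 arrays as 5 times (10 residual degrees of freedom). Moderated tests were two-sided, and p-values were adjusted over every probe set kept by the Benjamini-Hochberg method. A call needed an adjusted p under 0.05 and a higher time mean of at least 32. The fit was also run on simulated data drawn independently for each array. Such data cannot show how the test behaves where arrays deviate together, as described below. Errors are standard errors of this fit with n = 3 arrays per time.

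Genes were named through the platform annotation, which pairs 13513 of the array's probe sets with 1 gene, 503 with several and does not list 8730. Neighbouring genes came from the TAIR10.1 gene table. Named were the 25 highest scores paired with 1 gene, members of 15 gene lists, the 4 largest rises and falls among called members per comparison, the genes next to rank 200, and families or neighbours. Members, lists and tests were chosen with earlier results of these data known, and the role groups after the members were seen.

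Arrays of the same number deviated together at 12 and 24 h (r = 0.381, 0.147 and 0.449) and at 36 and 48 h (0.476, 0.324 and 0.463), so the numbers were taken to pair these times. Pairs with 0 h did not all exceed 0.1. The labels do not state what a number shares, and replicate 3 of 36 h is unnumbered in the labels. The main fit did not use this pairing, so its errors include differences between the numbers. For 24 h against 12 h it called 171 of the probe sets kept higher, where the replicate block called 430.

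Alternatives were floors of 16 and 64 or medians in the choice of members, a floor of 32 or an offset of 16 in the tests, median-centred or quantile-normalized arrays, no filter, a replicate block, only the arrays of the 2 times compared, and leaving out each array.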

Additional observations from a re-analysis of the deposited data

How the results depend on the processing

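The 200 were chosen again under 23 other settings, and 130 to 200 of them were chosen in each, with the fewest without replicate 1 (all its arrays, 130), without 24 h replicate 1 (138) and without replicate 3 (151). Leaving out single arrays kept 138 to 200. Other floors, scalings or the median per time kept 153 to 194. For 48 h against 36 h, 0 members were called under every setting run, the replicate block included. For 24 h against 12 h the count of 25 higher was 14 with no filter on dim probe sets, 0 with only the arrays of the 2 times, 0 to 33 when 1 array was left out, and 36 with the replicate block, which pairs these times. For 12 h against 0 h the 16 higher were 10 with signals below 32 set to 32, and 13 to 17 with 1 array left out. The 14 lower were 6 with that floor, 8 with an offset of 16, 9 with no filter, and 7 to 11 with 1 array left out. For 24 h against 0 h the replicate block called 82 in place of 71, and 57 to 73 were called higher and 0 to 2 lower with 1 array left out. The cause of these changes was not tested, beyond the smaller number of arrays or the larger number of probe sets that some settings have. Leaving out 1 array leaves a time with 2 arrays. Of the 200, 186 were higher at 48 h than at 36 h, and 120 (without 36 h replicate 3) to 196 (without 36 h replicate 1) were with 1 array left out, so single members changed sign. Signals near or below 30.7 limit what can be said of early levels, and folds against them are uncertain in size.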
